A study of Homo sapiens with 22 samples.

Results

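Interferon response genes and their IRF and STAT transcription factors were followed across clones of a human cell line that carries coagulation factor VIII. The set was chosen by name, with earlier results of these data known. It holds BST2, IRF7, IFI44L, ISG15, IRF1, IRF3, IRF9 and STAT2. Of these 8 genes, 7 were among the 15797 genes of the deposited table, and IRF9 was not analysed here. All samples were total RNA of HEK293 cells, an established human embryonic kidney line, with the cell line label HEK28, grown to about 70% confluency with no treatment. The BDD group had 6 clones (1, 2, 7, 12, 13 and 27) with the B-domain deleted protein, and the FL group had 4 clones (4, 7, 9 and 10) with the full-length protein. A further line is titled HEK 28 although its genotype label reads full length, and it was kept apart from both groups. Each clone had a library a and a library b. BDD clone 2 is titled "oldbdd", which the labels do not explain. The labels give neither the promoter that drives factor VIII nor a line without it, so no comparison here is with cells that lack the transgene. They do not say whether clones came from separate transfections or libraries a and b from separate cultures, so p-values measure only the spread between these clones.

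Interferons are secreted proteins by which cells signal the presence of viral nucleic acid. Sensors of RNA and DNA activate IRF3 and IRF7, which switch on interferon genes, and secreted interferon binds receptors whose Janus kinases phosphorylate STAT factors. A complex that holds STAT2 and IRF9 binds the interferon-stimulated response element (ISRE) in promoters such as that of ISG15, while STAT dimers formed after interferon gamma bind the gamma-activated site (GAS). IRF1 and IRF7 are themselves targets of these pathways as well as factors.

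Promoter sequences show which members carry these elements next to their start. The ISRE was searched as GAAA, any 2 bases and GAAA again, and the GAS as TTC, any 3 bases and GAA, on both strands, in the 250 bases upstream of each RefSeq start (assembly GRCh38.p14). Of 35116 RefSeq promoter windows of that length, 3.02% held the ISRE letters and 6.57% the GAS letters. BST2 held 2 ISRE matches, which overlap each other, and 2 GAS matches, 1 of which overlaps an ISRE match. IFI44L held 2 separate ISRE matches and ISG15 held 2 overlapping matches. IRF1 held 1 GAS match and no ISRE match, IRF9 held 1 GAS match, and STAT2 held neither. A match to these letters is a description of the sequence and not a measured binding site. IRF7 and IRF3 had no entry in the promoter table. The stretches with matches are shown for the members that differed between the groups, on the strand of the gene, with matches in capitals. They lie at chr19:17405740-17405769 on the minus strand (BST2), chr1:78620283-78620402 on the plus strand (IFI44L), chr1:1013303-1013422 on the plus strand (ISG15) and chr5:132490799-132490918 on the minus strand (IRF1).
BST2: cctTTCTGGGAAACTGAAACTGAAAaccta
IFI44L: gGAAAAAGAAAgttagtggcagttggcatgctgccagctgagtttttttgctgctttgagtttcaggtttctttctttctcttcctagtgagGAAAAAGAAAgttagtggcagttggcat
ISG15: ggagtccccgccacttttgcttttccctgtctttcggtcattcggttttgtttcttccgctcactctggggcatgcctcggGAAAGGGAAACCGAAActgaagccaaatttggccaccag
IRF1: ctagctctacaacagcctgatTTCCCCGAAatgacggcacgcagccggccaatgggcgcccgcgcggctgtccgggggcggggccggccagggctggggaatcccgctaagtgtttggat
In the IFI44L stretch the same 29 bases, with an ISRE match inside them, occur at both ends of the printed sequence. The BST2 stretch runs from position -139 to -110 relative to the start, and its other GAS match, at -58 to -50, is not printed.

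Levels are given in log2 CPM (read counts scaled to library size, on a log2 scale), as the mean of libraries a and b of a clone. The values hold a prior of 2 reads, which pulls low genes together and so understates their fold changes. The BDD group was tested against the FL group with limma, with p-values adjusted over 15611 genes by the method of Benjamini and Hochberg and a threshold of 0.05. In this comparison 5080 genes (32.5%) were called, 2506 (16.1%) higher and 2574 (16.5%) lower in BDD clones, and the median log2 difference was 0.01. Libraries held 4951081 to 6197084 reads, and the members had 5 to 223 reads in a library. The factor VIII gene F8 differed between clones, from 2.10 in BDD clone 13 and 3.75 in BDD clone 7 to 7.74 in BDD clone 1, against 7.11 to 7.87 in FL clones and 8.90 in the line titled HEK 28. CPM is not scaled to transcript length, so F8 levels of B-domain deleted and full-length clones may not be on 1 scale. All 9 genes listed as epithelial or neuronal genes of HEK293 were in the table. Of them KRT8 and KRT18 (keratins) were higher in BDD clones, NEFL, NEFM (neurofilaments) and WT1 lower, and 4 were not called. The summed level of the list was 1132 to 2214 CPM in BDD clones and 4886 to 5114 CPM in FL clones. Most of that sum is NEFM, with a mean of 10.25 log2 CPM in BDD and 12.04 in FL clones. The 9 genes had a median log2 difference of -0.02, with 55.6% called against 32.5% of all genes tested. Their part in the results below was not tested. Since these are bulk samples, more cells with a transcript and more transcript per cell cannot be told apart.

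Of the 7 members in the table, 5 were higher in BDD than in FL clones and none was lower, against 16.1% and 16.5% of all genes tested. These were BST2, IRF7, IFI44L, ISG15 and IRF1, in order of size from 5.59-fold to 1.57-fold. In each of the 5 all BDD clones lay above all FL clones, which held for 10.7% of the genes tested. For IRF3 and STAT2 the groups overlapped and neither gene was called. The median log2 difference of the 7 was 0.69. Since the members were chosen with earlier results of these data known, these shares describe the set and are no independent test of it.

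Ligands of the pathway gave nothing to compare. None of 22 interferon genes asked for (alpha, beta, gamma, lambda and others) was in the table, so they were not analysed here. Their absence says only that no values for them were used, since the filter behind the table is not given.

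Receptors and Janus kinases did not pass the test in either direction. All 9 genes of that list in the table were tested, 0 were called at the adjusted threshold, against 32.5% of all genes tested, and their median log2 difference was -0.07. The smallest p belonged to IFNGR1, a chain of the interferon gamma receptor, at 2.52 ± 0.64 log2 CPM (SD, n = 6) in BDD and 3.28 ± 0.67 (SD, n = 4) in FL clones, with a limma adjusted p of 0.103. IFNGR1 was called lower without BDD clone 27 (-0.99, limma adjusted p = 0.0224) and with clone weights (-0.85, limma adjusted p = 0.0438). For IFNAR2, a chain of the type I receptor, the difference was -0.54 (95% interval -1.10 to 0.01). With clone weights IFNAR2 was called lower (-0.71, limma adjusted p = 0.0311). For its partner IFNAR1 the difference was -0.22 (-0.49 to 0.05). JAK1 and TYK2, the kinases bound to that receptor, differed by -0.07 and -0.15.

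Of the sensors and adaptors that lead to IRF3 and IRF7, 17 of 27 were in the table and 15 were tested, with 1 higher and 2 lower (limma) and a median log2 difference of -0.24. The share called was 20%, below the 32.5% of all genes tested. STING1, the adaptor of cytosolic DNA sensing, rose by 1.47 on the log2 scale (SE 0.33, limma adjusted p = 0.0043). TRAF6, a ubiquitin ligase of Toll-like receptor signalling, fell by 0.60 (limma adjusted p = 0.0312). MAVS, the mitochondrial adaptor of RNA sensing, fell by 0.30 (limma adjusted p = 0.0422). The TRAF6 and MAVS calls were lost in 8 and 15 of the 26 alternative settings, and that of STING1 in none. DDX58, the RNA sensor RIG-I, had a difference of -0.65 that missed the threshold (limma adjusted p = 0.0897). After each clone's trends with level, length, span and GC content were removed, DDX58 was called lower (-0.97, limma adjusted p = 0.0192), and 4 sensors and adaptors in all were lower there.

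IRF3 is present in resting cells and is switched on by phosphorylation, which RNA levels do not show. It lies on chromosome 19 (49659569 to 49665875, minus strand, GENCODE 29 on GRCh38). Its levels in BDD clones 1, 2, 7, 12, 13 and 27 were 4.41, 3.96, 4.31, 4.53, 4.62 and 4.08, and those in FL clones 4, 7, 9 and 10 were 4.06, 4.02, 4.26 and 4.49. The groups overlapped along most of their range, and BDD clone 2 was the lowest of all. The difference was 0.11 (95% interval -0.24 to 0.47, limma adjusted p = 0.629). The gene span of IRF3 overlaps BCL2L12 on the other strand. BCL2L12, a gene of the BCL2 family, ranged from 5.27 to 5.84 log2 CPM in BDD and from 6.04 to 6.28 in FL clones and was called lower (-0.53, limma adjusted p = 0.00614), though not in library a alone (adjusted p = 0.0651). The strand setting of the counting is not given in the sources used here, so reads of the shared stretch cannot be told apart.

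STAT2, the partner of IRF9 in the ISRE-binding complex, lies on chromosome 12 (56341597 to 56360155, minus strand). BDD clones in the same order had 4.51, 4.27, 4.65, 4.67, 4.62 and 4.16, and FL clones 4.28, 4.26, 4.08 and 4.53. The groups overlapped again, with BDD clones 1, 2 and 27 inside the FL range. The difference was 0.20 (95% interval -0.13 to 0.52, limma adjusted p = 0.344). In BDD clone 2 the libraries a and b of STAT2 were 1.18 apart, at 3.68 and 4.86.

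IRF7, the factor best known for amplifying interferon alpha genes, lies on chromosome 11 (612553 to 615999, minus strand). It was at 3.56, 2.25, 3.21, 2.88, 2.70 and 2.75 in BDD clones 1, 2, 7, 12, 13 and 27. In FL clones 4, 7, 9 and 10 it was at 0.80, 1.23, 1.20 and 1.95. All BDD clones lay above all FL clones, with BDD clone 2 and FL clone 10 closest to each other. The libraries a and b of BDD clone 2 were at 2.88 and 1.61 (36 and 13 reads). Its library b thus lay inside the range of the FL clones. IRF7 rose 3.02-fold, by 1.60 on the log2 scale (SE 0.28, limma adjusted p = 0.000902). FL clones rested on 16 to 38 reads each and BDD clones on 49 to 125. The libraries of FL clone 7 held 20 and 5 reads, a difference of 1.67 on the log2 scale that is larger than the group difference itself.

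IRF1, a factor induced by interferon gamma through its GAS (shown above), lies on chromosome 5 (132481609 to 132490798, minus strand). BDD clones in the same order were at 4.66, 3.74, 3.84, 4.46, 4.39 and 3.86, and FL clones at 3.24, 3.60, 3.61 and 3.56. Clones 1, 12 and 13 of the BDD group were well above FL, while clones 2, 7 and 27 lay only just above it. IRF1 rose 1.57-fold, by 0.65 on the log2 scale (SE 0.20, limma adjusted p = 0.0222). Without FL clone 4, the lowest clone, the difference was 0.57 and the limma adjusted p 0.0721, and in library a alone they were 0.47 and 0.19, so the call was lost in either case. Further genes whose spans overlap IRF1, ISG15 or STAT2 in GENCODE 29 were not analysed here.

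Of the other IRF and STAT genes, 9 of 11 were in the table and tested, 3 were called higher and 0 lower (limma), and the median difference was 0.22. That is 33.3% called, against 32.5% of all genes tested, of which 16.1% were higher and 16.5% lower. The difference was above 0 in 7 of the 9. IRF5, which acts downstream of Toll-like receptors, rose by 0.97 (limma adjusted p = 0.0198), although the difference was not called without FL clone 9 (adjusted p = 0.0587) or FL clone 10 (0.0514). STAT3, which responds to interleukin 6, rose by 0.40 (limma adjusted p = 0.0341) but did not pass in 13 of the 26 settings.

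BST2 (tetherin), a membrane protein that holds budding enveloped viruses at the cell surface, differed most among the members. It lies on chromosome 19 (17402939 to 17405648, minus strand). Its levels were 3.34, 3.10, 4.60, 2.87, 4.37 and 3.90 in BDD clones 1, 2, 7, 12, 13 and 27. They were 1.38, 0.68, 1.03 and 1.76 in FL clones 4, 7, 9 and 10. Every BDD clone was above every FL clone, with a gap between the lowest BDD clone and the highest FL clone that is visible in the plot of members by clone. BST2 rose 5.59-fold, by 2.48 on the log2 scale (SE 0.34, limma adjusted p = 0.00013). The FL clones held 13 to 33 reads each and the BDD clones 74 to 262. The SD between clones was 0.71 in BDD, where counting error alone gives 0.13, and 0.47 in FL, where it gives 0.32. Libraries of 1 clone also differed, by up to 1.37 in BDD clone 2 (3.78 and 2.42, with 69 and 24 reads). The SD between clones therefore holds library differences as well. BDD clone 7 was 3.33-fold above BDD clone 12, the widest range of any member within BDD.

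MVB12A, an ESCRT gene named for its position, starts next to BST2 on the opposite strand without overlapping its gene span. The span of MVB12A (17405722 to 17433724, plus strand) does cover the stretch upstream of BST2 printed above, with its matches. MVB12A was at 5.23 ± 0.23 log2 CPM (SD, n = 6) in BDD and 5.67 ± 0.16 (SD, n = 4) in FL clones and was called lower (-0.44, limma adjusted p = 0.0231). In 8 of the 26 settings it was not called. The neighbouring genes BST2 and MVB12A thus differed in opposite directions.

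IFI44L, an interferon-stimulated gene often read in blood signatures of interferon exposure, lies on chromosome 1 (78619922 to 78646145, plus strand). BDD clones in the same order had 4.33, 3.62, 3.76, 4.40, 4.07 and 4.27, and FL clones 3.24, 2.63, 2.72 and 3.51. The lowest BDD clone, 2, was only slightly above the highest FL clone, 10. IFI44L rose 2.07-fold, by 1.05 on the log2 scale (SE 0.22, limma adjusted p = 0.0024). Its 124 to 220 reads per BDD clone and 62 to 126 per FL clone give a counting SD of 0.11 and 0.16, against 0.32 and 0.42 between clones.

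ISG15, a ubiquitin-like protein that is attached to other proteins after interferon, lies on chromosome 1 (1001138 to 1014540, plus strand). Its levels in BDD clones were 4.92, 5.27, 4.97, 4.68, 5.07 and 4.97, and in FL clones 4.57, 4.09, 4.37 and 4.16. BDD clone 12 and FL clone 4 were nearly level, and the remaining clones of the groups were further apart. ISG15 rose 1.61-fold, by 0.69 on the log2 scale (SE 0.15, limma adjusted p = 0.00293). The difference was 0.38 in library a alone (adjusted p = 0.136) and 0.99 in library b alone, and the gene was called in library b but not in library a.

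Enzymes that attach or remove ISG15 were grouped after their values were seen. UBA7, its activating enzyme, rose by 1.49 (limma adjusted p = 0.0108), and UBE2L6, its conjugating enzyme, by 1.70 (limma adjusted p = 0.000109). HERC5, the main ligase, differed by -0.18 (95% interval -0.53 to 0.17), and USP18, which removes ISG15 and also restrains the type I receptor, by 0.31 (-0.14 to 0.76). The difference of UBA7 was 1.03 with F8 as a covariate and was not called there (limma adjusted p = 0.11). It was also not called in library b alone (1.45, limma adjusted p = 0.0854) or with each clone's trends removed (1.06, adjusted p = 0.0539). The FL mean of UBA7 was -0.74 log2 CPM, near the floor, and the groups overlapped (lowest BDD clone -0.26, highest FL clone -0.21).

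Other type I interferon-stimulated genes did not move as a block. Of 70 genes listed, 46 were in the table and 45 were tested, with 11 higher, 3 lower and 31 not called by limma. That is 31.1% called, close to the 32.5% of all genes, with a median log2 difference of 0.27. By direction, the 11 higher and 3 lower of 45 stand against 16.1% higher and 16.5% lower of all genes tested. The difference was above 0 in 31 of the 45. UBE2L6 led the list, at 2.61 ± 0.22 log2 CPM (SD, n = 6) in BDD and 0.90 ± 0.27 (SD, n = 4) in FL clones. IFITM2, a membrane protein that blocks viral entry, was at 4.70 ± 0.43 and 3.44 ± 0.11 (1.26, limma adjusted p = 0.000475). Its near-identical copy IFITM3 was also called higher (1.12, limma adjusted p = 0.0129), though not in library a alone (0.80, adjusted p = 0.091) or with F8 as a covariate (0.96, adjusted p = 0.0841), and how the counting split reads between them is not known. PHF11 rose by 1.46 (limma adjusted p = 0.00745). LY6E, a membrane protein induced by interferon, went the other way and fell by 0.84 (limma adjusted p = 0.00536). Among genes named after their values were seen, MX1, the dynamin-like antiviral protein, rose by 1.34 (limma adjusted p = 0.00887). MX1 was not called in library a alone (1.17, limma adjusted p = 0.123) or with each clone's trends removed (0.89, adjusted p = 0.0606), and its FL mean was -0.81 log2 CPM, near the floor. IFIT1, which binds viral RNA, had a difference of -0.91 that was not called (limma adjusted p = 0.0932), but it was called lower with those trends removed (-1.15, adjusted p = 0.0394) and with libraries as separate samples (adjusted p = 0.0364).

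**Figure D1:**
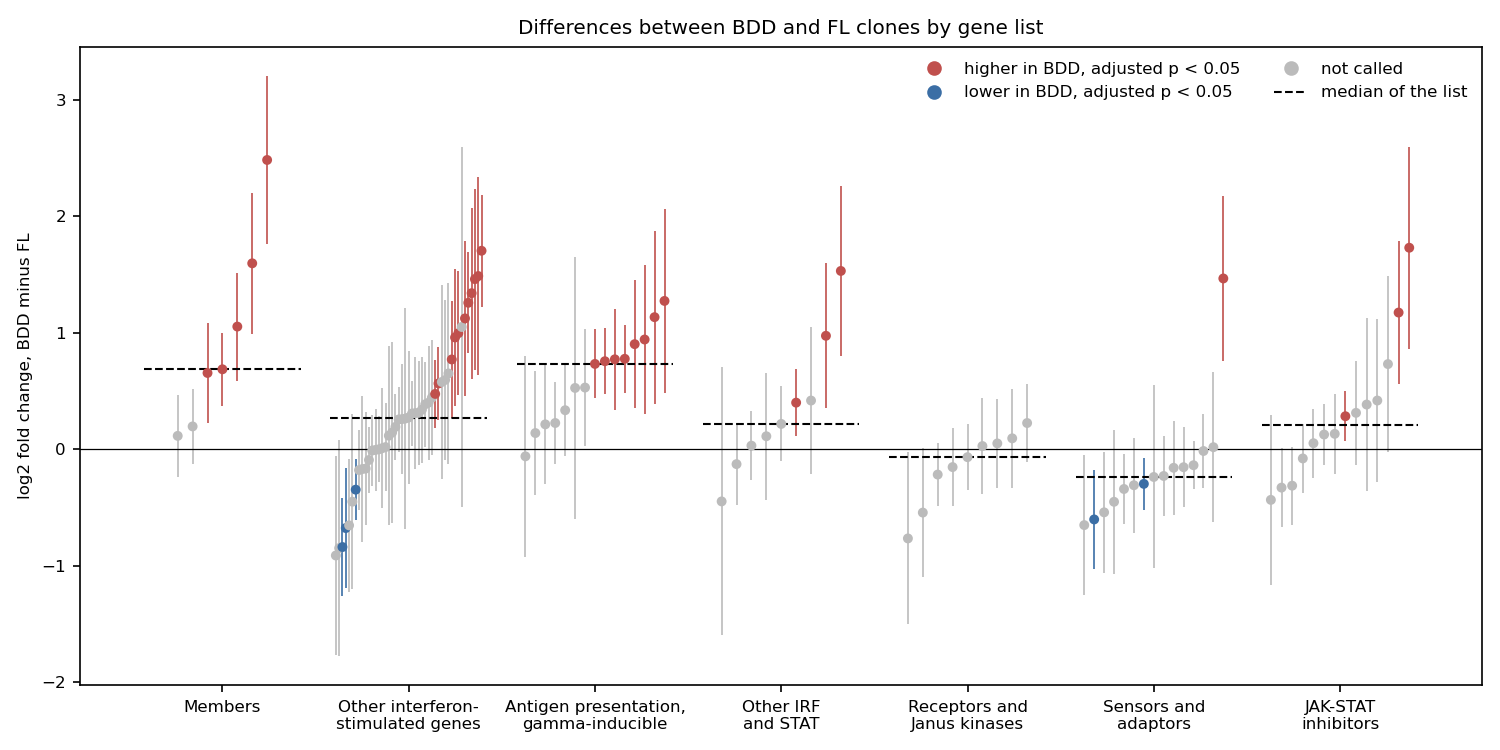
Log2 fold change, BDD minus FL (vertical axis), for each tested gene of 7 lists (horizontal axis), with 95% intervals as lines, colour for the call and a dashed line at the list's median. Members have 5 of 7 genes called higher and a median of 0.69, and receptors and Janus kinases have none called.

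Class I antigen presentation and interferon gamma inducible genes made up a list of 23. Of these 15 were tested, 8 were higher, 0 were lower and 7 were not called by limma, or 53.3% called against 32.5% of all genes tested, with a median log2 difference of 0.73. HLA-C, a class I heavy chain, was at 7.83 ± 0.25 log2 CPM (SD, n = 6) in BDD and 7.08 ± 0.16 (SD, n = 4) in FL clones (0.76, limma adjusted p = 0.000817). WARS1, a tRNA synthetase induced by interferon gamma, rose by 0.78 (limma adjusted p = 0.000882), and TAPBP, which helps load peptides, by 0.73 (limma adjusted p = 0.00138). HLA-B rose by 0.77 (limma adjusted p = 0.00987), and reads of HLA genes are hard to assign among close copies. In library b alone HLA-B and HLA-C were not called (limma adjusted p = 0.153 and 0.109). B2M, the light chain of the same molecules, differed by 0.14 (95% interval -0.39 to 0.67). B2M was named after its values were seen.

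Inhibitors of Janus kinase and STAT signalling had 3 of 14 genes higher and 0 lower (limma), with a median log2 difference of 0.21. The share called was 21.4%, below the 32.5% of all genes tested. SOCS1, the feedback inhibitor of Janus kinases, rose by 1.73 (SE 0.41, limma adjusted p = 0.00531), from a level of -1.12 ± 0.39 log2 CPM (SD, n = 4) in FL clones that is close to the floor of -1.45. PTPN6, a phosphatase best known from blood cells, rose by 1.17 (limma adjusted p = 0.00699), and PTPN11, a related phosphatase, by 0.28 (limma adjusted p = 0.0412). The PTPN11 call was lost in 12 of the 26 settings.

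Markers of other cell types were few. Of 12 leukocyte markers 3 were in the table, with a summed level of 7.25 to 13.4 CPM in BDD and 4.56 to 8.17 CPM in FL clones. Of 7 fibroblast markers 2 were in the table, and COL1A1, a collagen chain, was called higher (0.95, limma adjusted p = 0.0131), with a summed level of 20.0 to 44.8 CPM in BDD and 12.2 to 31.0 CPM in FL clones. The other, COL3A1, also a collagen chain, was at 2.69 ± 0.35 log2 CPM (SD, n = 6) in BDD and 3.09 ± 0.99 (SD, n = 4) in FL clones. Its difference of -0.40 was not called (limma adjusted p = 0.405), and without FL clone 7 COL3A1 was called lower (-0.88, limma adjusted p = 0.0182). COL1A1 was not called in library b alone (limma adjusted p = 0.0531). The part of other cells in the results on members was not tested.

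**Figure D2:**
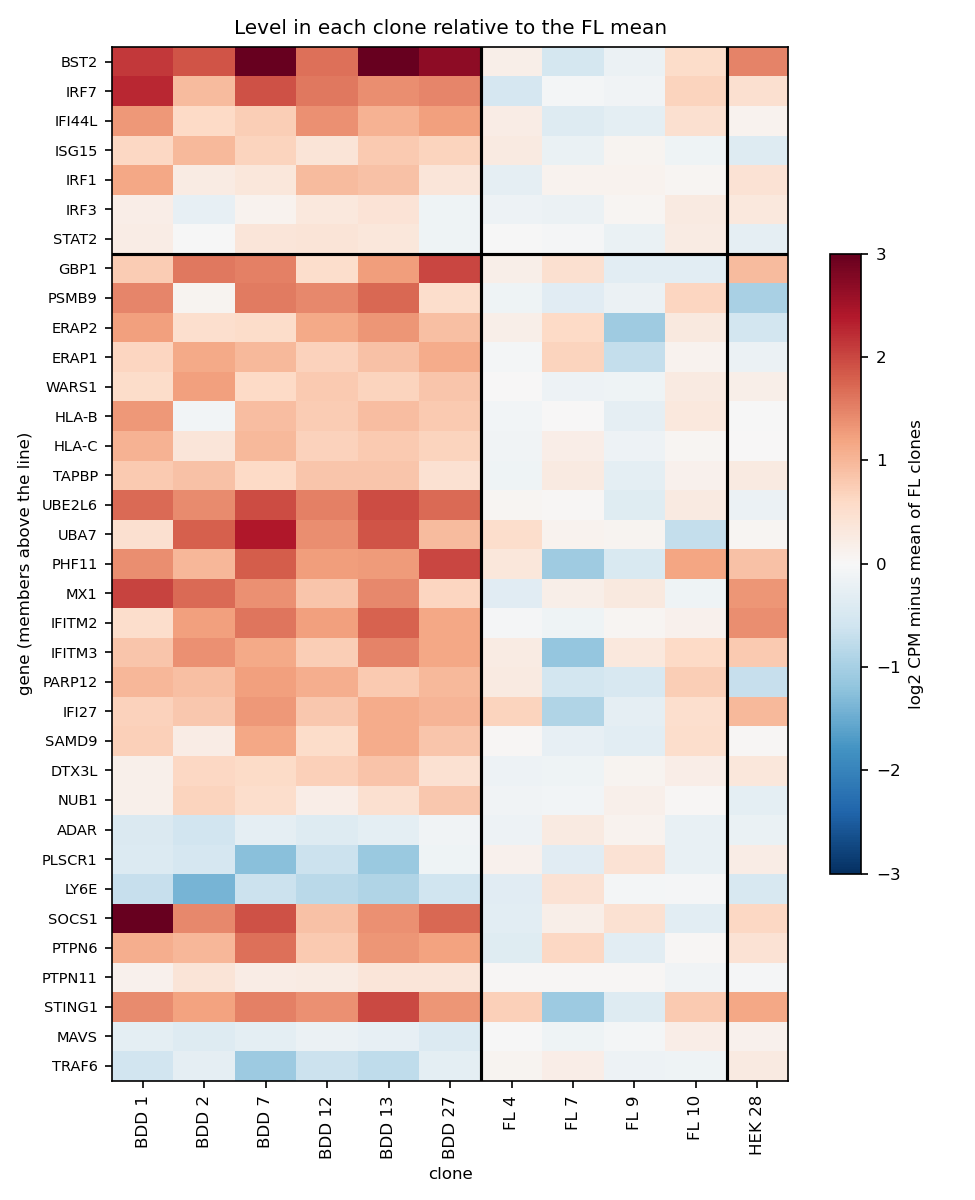
Level of each member (above the line) and of each called gene of 4 related lists (rows) in every clone (columns), as log2 CPM minus the mean of the FL clones, with colours that end at 3 in either direction. Rows below the line were chosen for their call, so red or blue in the BDD columns there is a description, and the column of the line titled HEK 28 was not used to choose them.

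Across the promoter table, genes with an ISRE match were compared as a description. Of 355 tested genes with the match, 71 were higher and 55 lower (20.0% and 15.5%), with a median log2 difference of 0.06. All 11130 tested genes with a promoter entry had 14.7% higher, 18.6% lower and a median of -0.03. For the GAS match 110 of 831 genes were higher and 142 lower. Of the listed interferon-stimulated genes, 36 had a promoter entry and 18 of these an ISRE match, of which 5 were higher and 1 lower. The whole list, with or without an entry, had 11 higher and 3 lower of 45. Of the antigen presentation genes, 12 had an entry and 7 of these the match, of which 4 were higher and 0 lower. That whole list had 8 higher and 0 lower of 15. The whole lists include genes whose promoter was not searched, so they are not a matched comparison. Whether the match goes with a higher level within these lists was not tested.

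The line titled HEK 28 was set against both groups in a fit over all 11 clones that shares the spread, since it is a single line and its own spread between clones is not known. Its levels were 2.71 for BST2, 1.77 for IRF7, 3.14 for IFI44L, 3.91 for ISG15, 3.93 for IRF1, 4.52 for IRF3 and 4.02 for STAT2. IRF7 and IFI44L fell inside the FL range, BST2 between the groups, IRF1 and IRF3 above the FL and inside the BDD range, and ISG15 and STAT2 below all other clones. Against FL clones 0 of 15611 genes (0%) passed limma's adjusted threshold, while 797 (5.11%) had an unadjusted p below 0.05. No member was called, and only BST2 had an unadjusted p below 0.05 (2.71 against an FL mean of 1.21, SE of the difference 0.59, limma adjusted p = 0.892). Against BDD clones 748 genes (4.79%) were called, and of the members ISG15 was, at -1.07 (SE 0.25, limma adjusted p = 0.0266). IRF7 (-1.12) and IFI44L (-0.94) had an unadjusted p below 0.05 that did not pass adjustment (limma adjusted p = 0.182 and 0.15). The contrast with BDD clones was added after the data were seen, and both contrasts use the same line.

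Clones of the same group were compared by limma's moderated F test with libraries a and b as the replicates. Within BDD 224 genes (1.43%) were called and 2599 had an unadjusted p below 0.05. No member was called within BDD, and BST2 and IRF1 had the smallest unadjusted values (0.00898 and 0.0477), with limma adjusted p of 0.149 and 0.295. Within FL 1395 genes (8.94%) were called and 4072 had an unadjusted p below 0.05, and no member passed either threshold.

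Levels of the members were then set against F8 across the 6 BDD clones, where F8 varies widely. BST2 was highest in clones 7 and 13, which have the least F8, and lowest in clone 12, which has nearly the most. Pearson's r was -0.87 (exact permutation p = 0.0319, 0.224 after adjustment over the 7 members, two-sided) and Spearman's rho -0.77 (exact permutation p = 0.103, adjusted 0.587). Without the clones farthest from the median of F8, 7 and 13, r over the remaining 4 clones was -0.65. No relation held after adjustment. For the other 6 members r was -0.39 to 0.41, with exact permutation p from 0.408 to 0.719. Over the 4 clones without 7 and 13, r turned from -0.23 to 0.84 for IRF3 and from -0.20 to 0.92 for STAT2, and it moved from 0.28 to 0.92 for IRF1 and from 0.23 to 0.69 for IRF7. For IFI44L r went from 0.41 to 0.43 and for ISG15 from -0.39 to -0.54. The values over 6 clones for IRF3, STAT2, IRF1 and IRF7 therefore rested in large part on clones 7 and 13. Those over 4 clones carry no test. With F8 as a covariate BST2 was called higher in BDD than in FL clones, by 1.94 on the log2 scale, the lowest value over the 26 settings. That fit used 1 slope for F8 over both groups, whose F8 levels may not be on 1 scale. The part of F8 in the BST2 difference was therefore not tested.

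**Figure D3:**
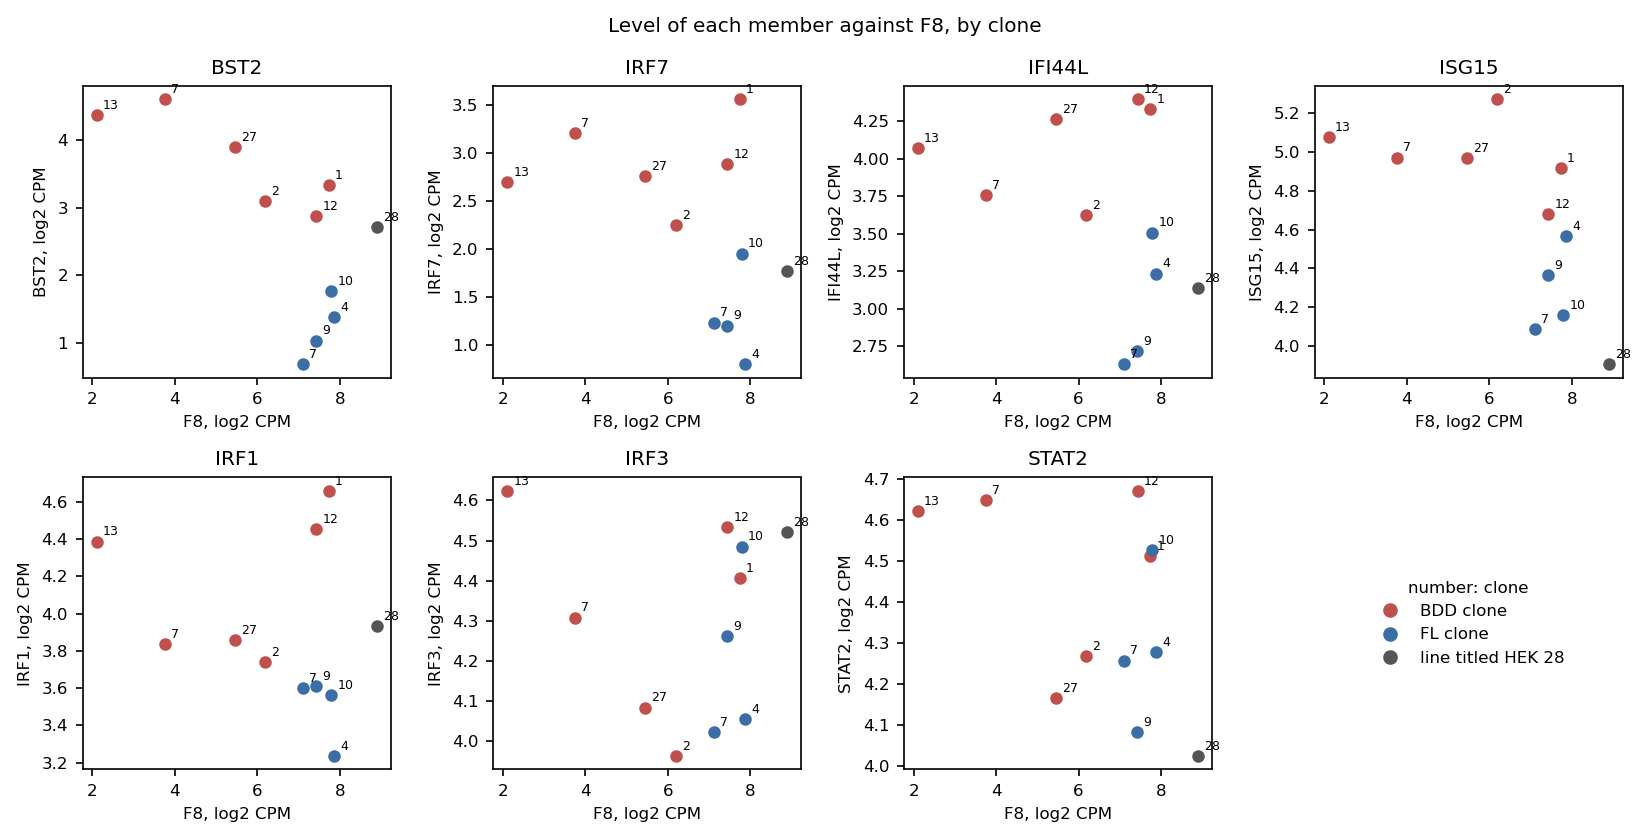
Level of each member (vertical axis, log2 CPM) against F8 (horizontal axis, log2 CPM), 1 point per clone with its number, axes not starting at 0. In BST2 the BDD clones 13 and 7 sit at the upper left and clones 1 and 12 at the lower right of the BDD points, while FL clones 4, 7, 9 and 10 lie below all of them.

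Members were also compared in how they deviate from their group mean over the 10 BDD and FL clones, as a description. The 21 pairs had r from -0.62 to 0.76 with a median of 0.32, and 15 were above 0. IRF3 and STAT2 were the most alike (0.76), followed by IRF1 and IRF3 (0.71), while ISG15 ran against IRF7 (-0.62) and IRF1 (-0.58). These values share library depth and clone. Among 11676 genes with a mean of at least 2 log2 CPM, the deviations most like those of BST2 belonged to RMDN3 (0.96), TCF12 (0.94) and SOCS6 (0.93). For IRF7 they were ZNF34 (0.92), TAP1 (0.91) and INTS11 (0.90), of which TAP1 is the peptide transporter of the class I pathway. For IFI44L they were SLFN11 (0.94), CAMKK1 (0.93) and SHISAL1 (0.93), and for ISG15 FIRRE (0.94), ZFP30 (0.93) and BEND6 (0.92). IRF1 was most like SNRNP48 (0.95), CYB5R1 (0.95) and DALRD3 (0.93), IRF3 like PKN3 (0.96), CASC15 (0.94) and P2RX1 (0.93), and STAT2 like NOD1 (0.96), KCNJ12 (0.95) and POLE (0.94). With so many genes compared over 10 clones, values of this size carry no test.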

How the data were processed

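Total RNA was read on an Illumina HiSeq, as the labels' protocols state. The submitters' processing notes list FastQC, cutadapt, TopHat2, Bowtie and hg38, with no versions. How reads were counted, by which annotation and strand, and how the table was filtered and scaled is not given in the sources used here. Values deposited by the authors are log2 CPM. Above the floor of -1.45 (0.367 CPM), 100% of values were whole multiples of a library's own step (tolerance 0.01), so whole reads were recovered. The floor equals a prior of 2 reads, and implied size factors were 0.941 to 1.08.

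Genes with at least 1 CPM in at least 4 of 10 clones were kept. Clone means of the deposited log2 values entered limma-trend (limma 3.58.1, R 4.3.3), with Python 3.11.15, pandas 2.3.3, numpy 2.4.6 and scipy 1.17.1 for the rest. Gene positions are those of GENCODE 29 (GRCh38). Promoters and their build are those of RefSeq, where 6 of the 8 members matched by symbol. The fits were tested on simulated reads. The 95% intervals are limma's for the difference in means, and the counting SD covers counting error only.

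The members and lists were chosen with earlier results of these data known. Named genes are all members, up to 4 called genes of smallest p per list (or the 1 of smallest p), interferon genes in the table, genes that overlap a member, and the 3 genes most like each member. Others are said to be named after their values were seen, or for their position. The 26 alternatives changed scaling, filter, prior or threshold, treated libraries as samples, used library a or b alone, left out each clone in turn, counted HEK 28 among the FL clones, or used F8 as a covariate, limma-voom on recovered reads, clone weights or removal of each clone's trend with GC content, level, span and length. Some genes that the rule names are not reported here.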

Additional observations from a re-analysis of the deposited data

Results flagged for a closer look

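In 7 of the 94 gene and group combinations checked, the outermost clone stood apart from the rest of its group by Dixon's test at a confidence of 95%, at which chance alone flags about 5% of them. IRF1 was at 3.24 log2 CPM in FL clone 4, below the other FL clones at 3.56 to 3.61, and this is the clone without which IRF1 is not called. HERC5 was at 5.12 in FL clone 7, above the others at 4.68 to 4.74. PTPN11 was at 6.13 in FL clone 10, below the others at 6.26 to 6.27. B2M was at 6.26 in BDD clone 2, below the others at 7.34 to 7.93. IFNAR1 was at 6.05 in BDD clone 13, above the others at 5.50 to 5.70. IFNGR1 was at 4.28 in FL clone 9, above the others at 2.83 to 3.07. USP18 was at 2.04 in BDD clone 27, below the others at 2.65 to 2.77.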

How the results depend on the processing

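The count of genes called between BDD and FL clones, 5080, was 2941 with library a alone, 3050 with library b alone, 3114 with F8 as a covariate and 2715 at an adjusted p below 0.01, and 3699 to 5325 when 1 clone was left out. With libraries as separate samples and the letter as a replicate block it was 6399. The labels pair no libraries by letter. The 5 members called became 3 with library a alone, where ISG15 and IRF1 were not called, and were 4 or 5 with any 1 clone left out. BST2 (1.94 to 2.83), IRF7 (1.34 to 1.81) and IFI44L (0.92 to 1.21) kept their call and direction in all 26 settings. ISG15 lost its call in 1 setting and IRF1 in 3, and IRF3 and STAT2 were called in none. Among the other named genes, BCL2L12, IFITM3, MX1, PHF11, PTPN6 and TAPBP lost their call in library a alone, COL1A1, IRF5, LY6E, SOCS1, TRAF6, UBA7, HLA-B and HLA-C in library b alone, and MAVS, MVB12A, PTPN11 and STAT3 in either. Leaving out 1 clone ended the call of TRAF6 (BDD clone 7 or 13, or FL clone 4, 7 or 9) and of MVB12A (BDD clone 7, or FL clone 9 or 10). It also ended that of MAVS for every clone but BDD clone 12 and FL clone 7, of STAT3 for every clone but BDD clones 1 and 27, and of PTPN11 for every clone but BDD clones 1 and 12. For the tests with the line titled HEK 28 and between clones of a group, other scalings, priors and no filter were added after the data were seen, and these counts stayed within 1.5 times. Depth limits BST2 and IRF7 most, whose FL clones hold few reads.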
